A study of Rattus norvegicus with 6 samples.

Results

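The mitochondrial ribosomal protein genes were followed in primary rat chondrocytes, the cells of articular cartilage, by RNA-seq. Their members were all genes of the deposited table whose symbol begins with Mrpl or Mrps and a digit, 76 of 18420 genes, with 46 named Mrpl and 30 named Mrps. The cells came from knee and hip cartilage of male, wild-type Sprague-Dawley rats and were used at the third passage. All 6 libraries had been exposed for 6 h to TNF-α at 10 ng/mL, an inflammatory cytokine used to imitate osteoarthritis in culture. The labels give the time of the TNF-α group (n = 3) as 6 h and that of the TNF-α+NFL group (n = 3) as 30 h, the latter with a further 24 h in Nanofat lysate (NFL), the cleared freeze–thaw lysate of stromal cells from rat fat. The effect of NFL and that of the later labelled time cannot be told apart, and no untreated library was analysed here.

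Mitochondria keep their own ribosome, which translates the few proteins encoded by mitochondrial DNA, all of them parts of the respiratory chain and ATP synthase. Its RNAs are made inside the organelle, whereas all of its proteins are encoded in the nucleus, translated in the cytosol and imported. The large subunit forms the peptide bond and the small subunit decodes the mRNA, and beside proteins with counterparts in bacterial ribosomes there are many that only mitochondria have. Chondrocytes live in poorly supplied cartilage and draw much of their ATP from glycolysis.

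Each library held between 19344893 and 19725135 estimated counts, of which the members made up between 0.170% and 0.191%. Counts were scaled by TMM to a common library size (CPM) and compared by the quasi-likelihood test in edgeR, and p-values were adjusted (Benjamini-Hochberg) over the 13250 genes that its filter on low counts let through. Differences between the groups are log2 fold changes, TNF-α+NFL over TNF-α, with their standard error (SE). TNF-α replicates 1 and 3 lay at opposite ends of the first principal component, which carried 28.0% of the variance. Collagen type II, aggrecan and Sox9, which define chondrocytes, were present but low, with Col2a1 at 4.29, Acan at 2.69 and Sox9 at 2.30 FPKM, the deposited level scaled by transcript length and library, beside 640 FPKM for the fibroblast collagen gene Col1a1. The summed CPM of 16 chondrocyte markers was 1700.3 to 1834 in the TNF-α group and 1951 to 2135 in the TNF-α+NFL group. Most of it came from Col11a1, at 1574 to 1699 and 1812 to 1999 CPM. Col2a1 and Col9a1 were also higher in every TNF-α+NFL library, and the other chondrocyte markers overlapped between the groups. The summed CPM of 8 macrophage markers, nearly all from Cd14 and Cd68, was 77.9 to 82.7 and 69.9 to 71.7. Of the other macrophage markers, Csf1r had 40 estimated counts (2.09 CPM) in TNF-α replicate 1 and 1 to 7 in the other libraries. Tyrobp had 11 there and 0 in all others, Ptprc had 7 and at most 2, and Itgam had 6 and at most 2. TNF-α replicate 1 stood apart in these genes but not in Aif1. Aif1 had 3 counts in TNF-α replicates 1 and 2 and at most 1 elsewhere. Among TNF-α replicates 1, 2 and 3, Cd14 was at 53.5, 54.2 and 55.1 CPM. Cd68 was at 25.7, 24.4 and 22.4 CPM in the same order. C1qb and the endothelial Kdr were at 0 in every library. The other lists were low or overlapped between the groups, with endothelial markers at or under 0.87, blood markers at or under 0.76, adipocyte markers at 16.1 to 20.0 and fibroblast markers at 10754 to 12358 CPM. In none of the 6 lists did a gene pass an adjusted p of 0.05, but no endothelial or blood marker was tested. Of the 8 macrophage markers 2 were tested, and of the 8 adipocyte markers 3. The part of these cell types in the results that follow was not tested. In bulk RNA fewer cells of a type and less RNA per cell cannot be told apart.

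No member, in either direction, passed the edgeR test at an adjusted p of 0.05. Of all genes tested, 0.611% passed it, and 0.204% passed it as lower in the TNF-α+NFL group. Of the 76 members, 75 were tested, and most of them were slightly lower after NFL, with 62 below and 13 above no change and a median of -0.066 in log2, against -0.0035 for all genes. The filter left out only Mrps21l. At an unadjusted p under 0.05 there were 10 lower and 0 higher members, where 5.45% of all genes were lower and 5.66% higher at that level. Of the 1230 genes of like level and length described further on, 8.94% were lower. Of the 280 in a narrower window 11.4% were lower, beside 13.3% of the members. The members were shorter, with a median length of 949 bases against 1312 for the 1230 genes and 1099 for the 280. The other tests also called no member after adjustment, and gave 5 members at an unadjusted p under 0.05 with DESeq2, 10 with limma-voom and 14 with limma on FPKM, each of them lower. The shares of all genes that were lower at that level in these tests were 2.89%, 5.33% and 5.28%.

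Scaled by transcript length, the levels of the members differed widely. Mrpl17, a large-subunit protein with a bacterial counterpart, was the highest member, at 118 to 134 FPKM over the 6 libraries, above the range of every other member. Mrpl33, Mrps21, Mrpl23 and Mrpl54 followed at means of 70.3, 67.9, 63.1 and 62.1 FPKM. Mrpl23 sits at the exit of the peptide tunnel, Mrps21 belongs to the small subunit, and Mrpl33 and Mrpl54 belong to the large one. The ranges of these 4 genes overlapped each other and lay above that of Mrpl41, the next in order, so they stood apart from the rest. Within each of the 6 libraries, Mrpl33 was above Mrpl23 and Mrpl54, and Mrps21 was above Mrpl54. At the low end of the tested members stood Mrps28, a small-subunit protein, at 3.25 to 4.02 FPKM, together with Mrpl30 and Mrpl1, whose values were unstable and are given further on. The estimated counts behind a tested member averaged from 49.2 to 2419 per library, with a median of 378.

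**Figure D1:**
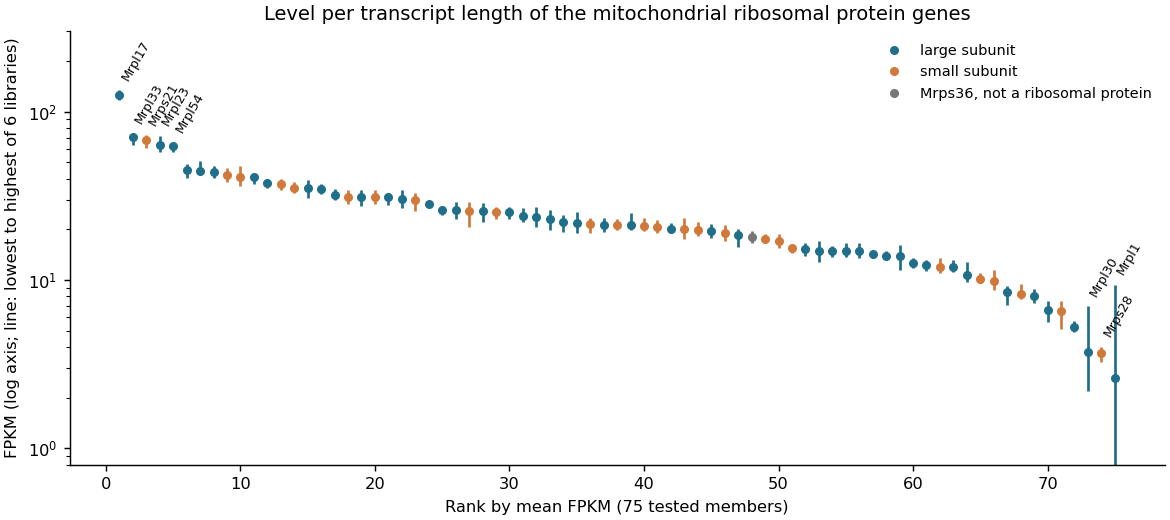
FPKM of the 75 tested members on a log axis, ranked by mean, with a line from the lowest to the highest of the 6 libraries (both groups) and colours for the subunits. Mrpl17 stands alone at 118 to 134 FPKM, and the long lines at the right are Mrpl30 and Mrpl1, whose line is cut at the axis because it was listed at 0 in 3 libraries.

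Motif letters were counted in the start regions of the members. Promoters of 61 of the 76 members, from 250 bases before to 50 after the start, were found in the RefSeq table of GRCr8. Motifs of 3 factors known to act on nuclear genes for mitochondrial proteins were searched on both strands: GCATGCGC for NRF1, CCGGAAG for the ETS family, to which GABPA belongs, and AAGATGGCG for YY1. The ETS letters were in 21 of the 61 promoters (34.4%), against 18.4% of 10335 other tested genes and 9.63% of all genes of the table. The YY1 letters were in 9 members (14.8%), against 3.74% and 1.99%. The NRF1 letters were in 5 members (8.20%), against 5.24% and 2.77%. At least 1 of the motifs was in 30 of the 61 members (49.2%), against 25.1% and 13.3%. These shares were not tested. A match is a description of these letters and not a site in use. The windows of 15 members (24.6%) overlapped the window of a gene on the opposite strand, against 15.0% of the other tested genes, and whether reads were counted by strand is not given in the sources used here, so reads where such genes overlap are uncertain.

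Stretches around the start are shown for members that carry the results, 5′ to 3′ on the gene's strand from RefSeq GRCr8, with letters of a searched motif on either strand in capitals. Mrpl17 (chr1:169575700-169575769, minus strand) is the most abundant member and holds a run in which the NRF1 letters of both strands overlap, and a second match nearer the start. Mrps18b (chr20:2842946-2843009, plus strand) and Mrpl52 (chr15:31852876-31852935, plus strand) are lead members with ETS letters, in Mrps18b beside an NRF1 run. Mrpl42 (chr7:32028487-32028510, minus strand) has the YY1 letters just after its start, and only that site is shown. Mrpl28 (chr10:15653119-15653178, plus strand), the member with the smallest p, held none of the searched letters in its window.
Mrpl17: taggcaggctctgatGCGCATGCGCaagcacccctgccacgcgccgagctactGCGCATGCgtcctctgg
Mrps18b: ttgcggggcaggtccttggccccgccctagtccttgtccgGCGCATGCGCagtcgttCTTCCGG
Mrpl52: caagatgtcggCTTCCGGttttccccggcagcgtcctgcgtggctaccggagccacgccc
Mrpl42: ttgaagcAAGATGGCGagcgcgcg
Mrpl28: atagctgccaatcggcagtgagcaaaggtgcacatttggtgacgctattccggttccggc

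The 6 members with the smallest p were all lower in every TNF-α+NFL library than in any TNF-α library, and 5 of them belong to the large subunit. Mrpl28 (Entrez gene 497876), a large-subunit protein shared with bacteria, was at 25.2, 28.6 and 27.9 CPM in TNF-α replicates 1, 2 and 3 and at 23.9, 21.8 and 22.6 CPM in the TNF-α+NFL replicates. The closest libraries of the groups were both numbered 1. This was a difference of -0.26 (SE 0.066), with an edgeR adjusted p of 0.11. Mrpl42 (Entrez gene 299743), which has no bacterial counterpart, was at 14.6, 14.9 and 16.4 CPM in the TNF-α group and at 12.8, 12.3 and 13.3 CPM in the TNF-α+NFL group. The difference was -0.25 (SE 0.077) and its edgeR adjusted p was 0.21, and TNF-α replicate 3 stood above the other libraries. Mrpl10 (Entrez gene 691075), which anchors the stalk that recruits translation factors, was at 41.1, 42.8 and 45.0 CPM in the TNF-α group and at 37.5, 38.9 and 38.2 CPM in the TNF-α+NFL group. The TNF-α libraries spread more than the TNF-α+NFL libraries, and the difference was -0.17 (SE 0.052; edgeR adjusted p of 0.21). Mrpl52 (Entrez gene 361037), peculiar to mitochondria, was at 42.7, 46.8 and 46.6 CPM and at 39.2, 40.1 and 42.1 CPM, in the same order. The highest of its TNF-α+NFL libraries lay just under the lowest of its TNF-α libraries, and the difference was -0.16 (SE 0.054; edgeR adjusted p of 0.25).

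The remaining lead members come 1 from each subunit. Mrps18b (Entrez gene 294230), one of several relatives of a bacterial small-subunit protein, was at 36.1, 34.9 and 33.7 CPM in the TNF-α group and at 29.3, 32.3 and 29.5 CPM in the TNF-α+NFL group, and its TNF-α replicate 1 was the highest of the 6. It differed by -0.20 (SE 0.058; edgeR adjusted p of 0.18). Mrpl35 (Entrez gene 297334), in the large subunit, was at 21.4, 20.3 and 21.3 CPM and at 18.3, 18.8 and 18.6 CPM, with the smallest spread within groups among these 6 genes. The difference was -0.18 (SE 0.061; edgeR adjusted p of 0.28). For a single gene the exact permutation test of 3 libraries against 3 cannot give a two-sided p under 0.10, which each of these 6 genes reached.

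**Figure D2:**
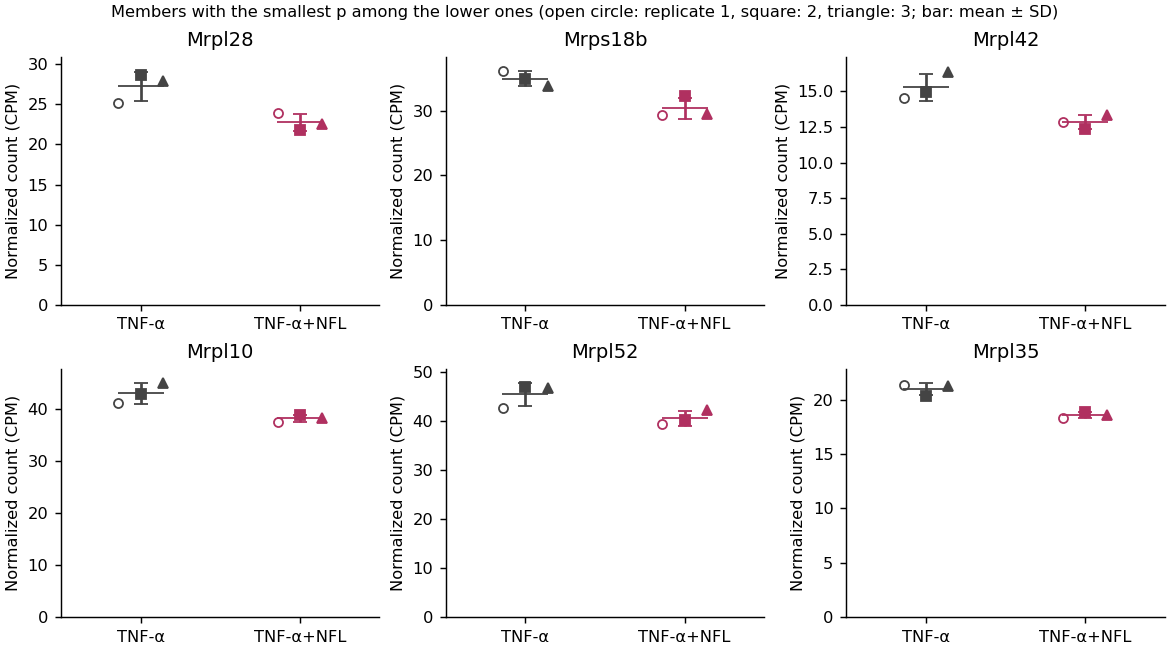
Normalized counts (CPM, axis from 0) of the 6 members with the smallest p, with each library as a symbol and the mean ± SD of each group (n = 3) as a bar. The TNF-α+NFL libraries lie below the TNF-α libraries in each panel, and the nearest libraries are those of Mrpl52, TNF-α replicate 1 (open circle) at 42.7 and TNF-α+NFL replicate 3 at 42.1 CPM.

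Full separation of the groups was found for 15 tested members as lower in the TNF-α+NFL group and for 0 as higher, that is 20.0% lower. Among all tested genes, 8.17% were separated as lower and 8.66% as higher. Besides the 6 genes above, the separated members were Mrpl4, Mrpl16, Mrpl39, Mrpl49, Mrps15, Mrps17, Mrps24, Mrps31 and Mrps34. Of the 1230 genes of like level and length, 12.4% were separated as lower, and of the 280 in the narrower window 14.6%.

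The members above no change were few, and none came near a call. Those with the smallest p were Mrpl47, Mrps35, Mrps10, Mrps22, Mrpl51 and Mrpl3, at 0.12, 0.072, 0.094, 0.047, 0.031 and 0.024 in log2, with SEs between 0.060 and 0.11. Leaving out 1 library moved Mrpl47 between 0.072 and 0.21, Mrps35 between 0.00045 and 0.13, Mrps10 between 0.024 and 0.16 and Mrps22 between 0.014 and 0.097, with the lowest values without TNF-α replicate 1 for Mrpl47 and Mrps35, without TNF-α+NFL replicate 1 for Mrps10 and without TNF-α+NFL replicate 3 for Mrps22. Mrpl51 and Mrpl3 were on both sides of no change, at -0.010 without TNF-α replicate 3 and at -0.028 without TNF-α replicate 1. Mrpl47, which lies by the exit of the peptide tunnel, was at 8.27, 9.92 and 8.65 CPM in the TNF-α group and at 9.70, 10.2 and 9.32 CPM in the TNF-α+NFL group, with overlap between them (edgeR adjusted p of 0.70). Mrps35 and Mrps22 are small-subunit proteins peculiar to mitochondria, Mrps10 is one shared with bacteria, and Mrpl51 and Mrpl3 belong to the large subunit, Mrpl3 near the site of peptide bond formation. Each had overlapping groups and an edgeR adjusted p of at least 0.80. None of the most abundant members was called in the fit of all 6 libraries: Mrpl17 differed by -0.071 (SE 0.051), Mrpl33 by 0.0049, Mrps21 by -0.030, Mrpl54 by -0.020 and Mrpl23 by -0.12 (SE 0.074). Leaving out TNF-α replicate 1 moved Mrpl23 to -0.20 and Mrpl17 to -0.13, and leaving out TNF-α replicate 2 moved them to -0.051 and -0.035.

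**Figure D3:**
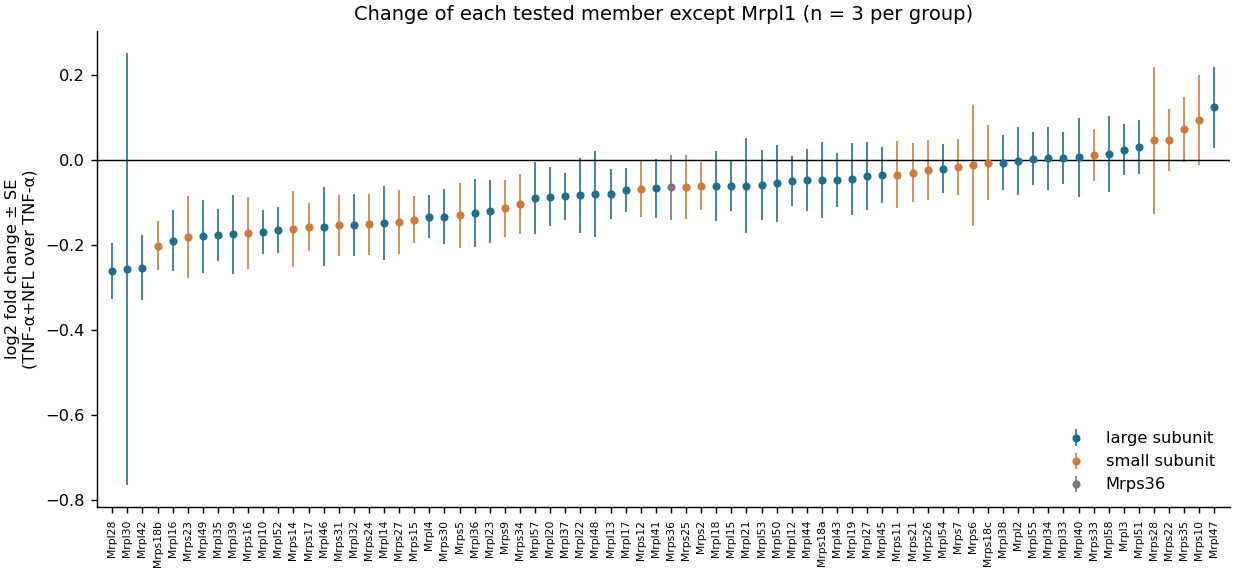
Log2 fold change (TNF-α+NFL over TNF-α) with its standard error for the tested members other than Mrpl1, in order of size and coloured by subunit. The points lie between -0.26 and 0.12, most of them below the line of no change, with both subunits mixed along the order, and the long bar is Mrpl30.

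The medians of both subunits lay close together, a difference that was not tested. The median was -0.069 in log2 over 48 large-subunit members, of which 40 were below no change, and -0.066 over 26 small-subunit members, of which 21 were below. These counts place Mrps18a and Mrps30 in the large subunit, where their proteins sit, and leave out Mrps36 and Mrps21l. The median was -0.071 over 45 members with a bacterial counterpart and -0.063 over 29 members peculiar to mitochondria. Mrps36, which RefSeq lists as Kgd4, a part of the α-ketoglutarate dehydrogenase complex and not of the ribosome, differed by -0.064 (SE 0.076).

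The spread between replicates was largest for Mrpl1, Mrpl30 and Mrps6. Mrpl1, part of the mobile stalk of the large subunit, had estimated counts of 63.8, 0 and 197 in the TNF-α replicates and of 68.2, 0 and 0 in the TNF-α+NFL replicates, and a gene listed at 0 between libraries of the same treatment gives no usable fold. Mrpl30, another large-subunit protein, was at 5.76, 7.49 and 18.1 CPM in the TNF-α group and at 8.58, 8.71 and 9.01 CPM in the TNF-α+NFL group, so that its highest value came from TNF-α replicate 3 alone. The difference was -0.26 with all libraries and 0.40 without that replicate. Its count was fractional in all 6 libraries, and that of Mrpl1 in 3. Mrps6, in the small subunit, was at 6.60, 9.01 and 9.61 CPM in the TNF-α group and at 9.60, 7.78 and 7.64 CPM in the TNF-α+NFL group (difference -0.012, SE 0.14). Mrps21l, a gene named as a copy of Mrps21, had between 0 and 5.89 estimated counts per library and was not tested.

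The small shift of the members did not divide the libraries by treatment. Their summed level was 1717, 1864 and 1901 CPM in TNF-α replicates 1, 2 and 3, and 1735.5, 1712 and 1723.5 CPM in the TNF-α+NFL replicates. TNF-α replicate 1 thus lay among the TNF-α+NFL libraries, while the other TNF-α libraries lay above all of them. The same held without Mrpl1 and Mrpl30, at 1708, 1857 and 1873 CPM against 1723.5, 1703 and 1714.5 CPM. Taken gene by gene, the median deviation from a member's mean over the 6 libraries (log2 CPM) was -0.055 in TNF-α replicate 1, 0.076 in replicate 2 and 0.093 in replicate 3, and -0.023, -0.047 and -0.037 in the TNF-α+NFL replicates. TNF-α replicate 1 was the lowest TNF-α library for 76.0% of the tested members, against 59.9% of the genes of like level and length described further on and 37.7% of all tested genes. The genes whose pattern over the 6 libraries was most like the members' median were Mrpl36, Mrpl37 and Mrpl46, all of the large subunit (Pearson correlations of 0.99, 0.97 and 0.97 with it). Mrpl36 showed the pattern at 11.7, 13.3 and 13.3 CPM in the TNF-α group and 11.8, 11.7 and 11.6 CPM in the TNF-α+NFL group.

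**Figure D4:**
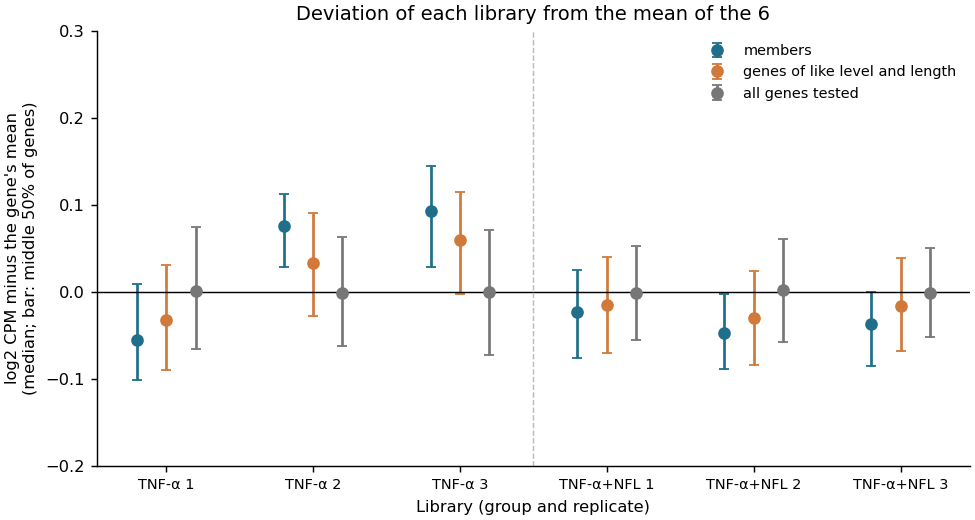
Median deviation of each library from the gene's mean over the 6 libraries (log2 CPM), with the middle 50% of genes as a bar, for the members, for genes of like level and length, and for all tested genes. TNF-α replicates 2 and 3 lie above 0 for the members (0.076 and 0.093) and, less so, for the like genes (0.033 and 0.060), and TNF-α replicate 1 lies with the TNF-α+NFL libraries.

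Transcript length moved with the same libraries. The length implied by count and FPKM had a median of 949 bases over the members, from 449 to 2590, against 2452 over all tested genes, and 66 of the 75 members fell within the 3 shortest of 10 length classes of equal size. Over the 12575 tested genes with a length, the median difference went from -0.078 in the shortest class to 0.040 in the longest. A smoothed trend over genes with a length was read at 700 bases, as log2 CPM minus the gene's mean. It was at -0.051, 0.075 and 0.092 in TNF-α replicates 1, 2 and 3, and at -0.029, -0.055 and -0.027 in the TNF-α+NFL replicates. Among the members themselves, the 43 under 1000 bases had a median of -0.063 in log2 and the 32 others of -0.10, a difference that was not tested.

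Other genes of like level and length also lay mostly below no change. The comparison took the 1230 tested genes that are no members and whose mean log2 CPM and length both lay between the 10th and the 90th percentile of the members. Their median level was 19.5 CPM, against 19.3 CPM for the members. Their median length was 1312 bases, against 949 for the members, so their lengths were not fully matched. Their median difference was -0.044, with 68.9% below no change, against -0.066 and 82.7% for the members. In a narrower window, between the 25th and the 75th percentile, 280 genes with a median length of 1099 bases had a median of -0.061, with 74.3% below no change. With each library's length trend taken out, the median of the members was -0.012, with 45 below and 30 above no change, and that of the like genes was -0.0040. No member passed an adjusted p of 0.05 in that fit (edgeR), where 9 of 75 were lower and 1 was higher at an unadjusted p under 0.05, against 5.52% and 6.3% of all genes. The lead members were still below no change there, at -0.21 for Mrpl28, -0.17 for Mrpl42, -0.15 for Mrps18b, -0.15 for Mrpl10, -0.15 for Mrpl35 and -0.11 for Mrpl52. The part of transcript length in the members' shift was not tested further.

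**Figure D5:**
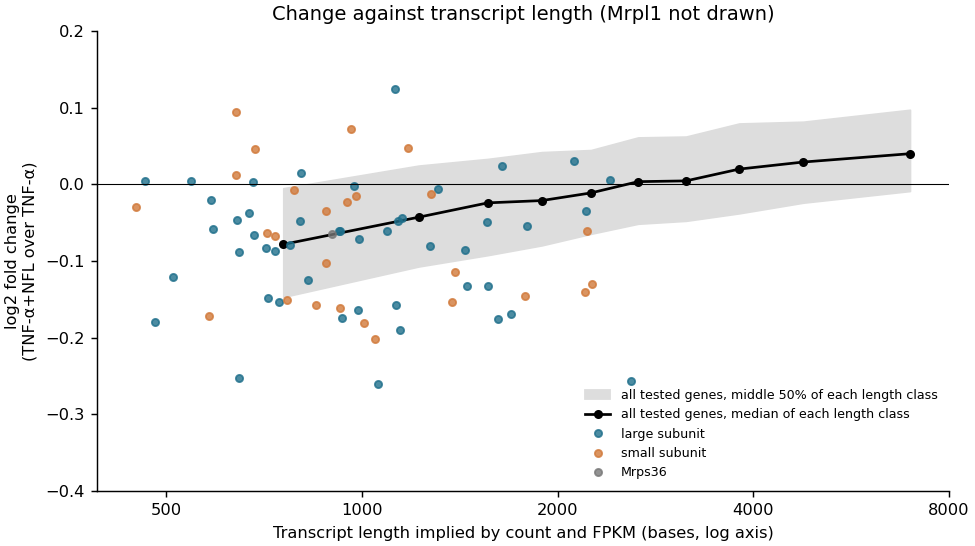
Log2 fold change (TNF-α+NFL over TNF-α) against transcript length (bases, log axis) for the members as points. The 12575 tested genes with a length are drawn as the median and middle 50% of each of 10 length classes. The median of these genes runs from -0.078 in the shortest class to 0.040 in the longest, and 66 of the 75 tested members belong to the 3 shortest classes. Mrpl1 is not drawn.

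The calls depended on TNF-α replicate 1. It was also the library with the most counts of Csf1r, Tyrobp, Ptprc and Itgam, but not of Cd14, and it shared the highest count of Aif1. The part of these genes in the calls was not tested. Without TNF-α replicate 1, edgeR called 8 members lower and 0 higher (adjusted p of 0.05), where 3.51% of all 13409 genes then tested were lower. The members were Mrpl28, Mrpl52, Mrps16, Mrpl10, Mrps15, Mrpl42, Mrpl17 and Mrps17, at -0.31 for Mrpl28 to -0.13 for Mrpl17 in log2. Mrps16, Mrps15 and Mrps17 are small-subunit proteins shared with bacteria. Mrps16 was at 21.8, 27.5 and 26.6 CPM in TNF-α replicates 1, 2 and 3 and at 22.9, 23.6 and 21.0 CPM in the TNF-α+NFL replicates, so TNF-α replicate 1 alone made its groups overlap. Mrps17, at 36.1, 37.7 and 39.0 CPM against 32.8, 32.7 and 35.7 CPM, was separated with all libraries. The median of the 75 members was then -0.13 and that of the like genes -0.073. With the length trend removed as well, a fit added after the data had been seen, 1 member, Mrpl28, was called lower (-0.23), where 1.1% of all genes were, and the median was -0.038. In the fits that each left out another library, edgeR called 0 members, with 7 to 11 lower and at most 1 higher at an unadjusted p under 0.05, where 3.4% to 4.17% of all genes were lower.

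Genes that build, serve or drive the mitochondrial ribosome were compared as fixed lists, and none of their genes passed an adjusted p of 0.05 in the fit of all 6 libraries (edgeR). The 5 ribosomal proteins that carry other names, among them Dap3 and Ptcd3, had a median of -0.069 in log2, with 4 below no change. Chchd1, of the small subunit, was lowest in p at 24.7, 27.3 and 25.7 CPM against 23.2, 23.8 and 22.8 CPM (-0.16, SE 0.060), and Ptcd3, of the same subunit, was at 0.0048. The 30 assembly factors had a median of -0.028, with 19 below no change, the 17 translation factors of -0.032, with 10 below, and the 20 genes of mitochondrial tRNA charging of -0.036, with 15 below. At an unadjusted p under 0.05 there were 1, 2, 3 and 2 lower genes among the other-named proteins, the assembly factors, the translation factors and the tRNA charging genes, and 1 higher gene, among the assembly factors, beside 5.45% lower and 5.66% higher of all genes. That gene was Mrm1, which methylates the large ribosomal RNA, at 0.19 (SE 0.080), while the GTPase Mtg1 was at -0.18 (SE 0.078). Among translation factors, the initiation factor Mtif3 was at -0.20 (SE 0.071) and the release factor relative Mtrf1 at 0.23 (SE 0.11). Among the tRNA synthetases, Fars2, for phenylalanine, was at -0.22 (SE 0.079) and Lars2, for leucine, at 0.12 (SE 0.080).

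The 19 tested genes, of 20, of mitochondrial transcription and its nuclear regulators had a median of 0.0084, with 9 below and 10 above no change. Tfam, which packs mitochondrial DNA and activates its transcription, was at 16.4, 17.7 and 16.9 CPM in the TNF-α group and at 14.9, 14.0 and 14.0 CPM in the TNF-α+NFL group. The groups were separate and differed by -0.25 (SE 0.071; edgeR adjusted p of 0.17). Ppargc1a, the coactivator known for driving mitochondrial biogenesis, was close to the detection limit, at 0.838, 0.607 and 0.404 CPM against 1.07, 0.871 and 0.662 CPM, with overlapping groups. Without TNF-α replicate 1, Tfam passed an adjusted p of 0.05 (-0.28), as did Slirp, which holds mitochondrial mRNA (-0.29), and Oxa1l, which inserts new proteins into the inner membrane (-0.15). These were 3.3% of the genes tested in the related lists, beside the 3.51% of all genes called lower in that fit. None of the genes for the 13 proteins encoded by mitochondrial DNA was found under the symbols searched, so they could not be analysed here.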

How the data were processed

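RNA-seq of 6 libraries was compared, 3 per group by the labels. The study describes the libraries of a group as independent biological replicates, and the labels do not say whether they came from separate cultures or animals, so p-values measure the spread between these samples. The authors deposited an estimated count (expected count, not normalized), an FPKM and a TPM value per gene. The submitters' processing notes name HISAT2 2.0.4, Bowtie2 2.2.5, RSEM 1.2.12 and Rnor_6.0, with no role or order, and the annotation is not given in the sources used here. FPKM as deposited gave levels and, with counts, transcript lengths, and TPM was only summed.

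Estimated counts were rounded and tested in edgeR 4.0.16 (R 4.3.3; filterByExpr, TMM, robust quasi-likelihood fit). Each SE is the absolute log2 fold change over the root of F. Alternatives used DESeq2 1.42.0, limma 3.58.1 (voom, or log2(FPKM + 1) with a mean FPKM of at least 1), other filters, a block, removal of each library's length trend (lowess, span 0.3) and leaving out each library. The fit was checked on simulated data, whose planted changes were all larger than those of the lead members in the fit of all 6 libraries. That check does not show whether changes as small as theirs would be found. Replicate pairs differed 2.71 to 13.1 times more than counting noise, so no library looked deposited again.

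Members, lists and tests were chosen with earlier results of these data known. Lists and ribosomal classes come from general knowledge. Named genes are the 6 members with the smallest p in each direction, the 5 highest and 3 lowest in FPKM, the 3 of largest spread, the untested member, Mrps36, the 3 nearest to the members' median pattern, any called gene, and the smallest p in each direction in each related list. Genes named beyond these were chosen after their values were seen. RefSeq identifiers of GRCr8 matched all 76 members. That build is not the authors', so its coordinates serve only the printed sequences. Genes sharing reads with near-identical copies are uncertain.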

Additional observations from a re-analysis of the deposited data

How the results depend on the processing

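No member was called under other filters, limma-voom, limma on log2(FPKM + 1), scaling by DESeq2, its Wald test, removal of the length trend or the block, and the members' median log2 fold change stayed between -0.068 and -0.057 except with the length trend removed (-0.012). All genes called numbered 54 higher and 27 lower, against 84 and 48 with no filter on low counts, 95 and 53 with the DESeq2 Wald test, 8 and 6 with limma on log2(FPKM + 1), and 150 and 84 with the length trend removed. A replicate block on the labels' numbers gave 25 and 9, the members' median was -0.064 and no member's call changed. No pairing of the samples by number was seen, as the deviations of same-numbered samples correlated at -0.011, -0.024 and 0.080. These values cannot decide whether the samples were made in pairs.

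Across the fits that left out 1 library, members called lower ran from 0 to 8, those called higher stayed at 0, the members' median ran from -0.129 to -0.044, all genes called ran from 5 to 460 higher and from 0 to 470 lower, and genes of the related lists called lower ran from 0 to 3. The highest counts came without TNF-α replicate 1 and the lowest without TNF-α+NFL replicate 1. With the length trend removed and without TNF-α replicate 1 together, chosen after seeing the data, there were 233 higher and 148 lower genes, 1 member and 1 gene of the related lists, both lower. The cause was not tested.

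Against the fit of all 6 libraries, the log2 fold change of 17 members turned direction with the length trend removed, of 16 with TNF-α replicate 1 left out as well, of 3 with FPKM, of 1 with at least 10 counts in every sample and of 5 to 13 in the fits that left out 1 library. Among the genes chosen by the naming rule, none that turned passed the threshold in either fit. With the length trend removed, these were Mrpl54 (0.069), Mrps21 (0.077) and Mrps6 (0.027), with TNF-α replicate 1 left out as well Mrpl54 (0.068) and Mrps21 (0.064), and with FPKM Mrps6 (0.00058). Among the same genes, over the fits that left out 1 library, the log2 fold change ran from -0.028 to 0.082 for Mrpl3, from -0.545 to 0.404 for Mrpl30, from -0.051 to 0.047 for Mrpl33, from -0.010 to 0.094 for Mrpl51, from -0.097 to 0.022 for Mrps21, from -0.015 to 0.129 for Mrps28, from -0.158 to 0.096 for Mrps6 and from -0.070 to 0.050 for Ptcd3, and Mrpl54 turned to 0.020 without TNF-α replicate 3.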
